A study of Mus musculus with 17 samples.

Results

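The genes followed here are Elane, Mpo, Prtn3, Ctsg and Ms4a3, 5 of the 54838 genes counted in each library, chosen by their GRCm38 symbols. Bulk RNA sequencing was done on haematopoietic stem cells (HSCs) from the C57BL/6 Jrj strain, sorted as CD150+ CD48- cells among c-Kit+ Sca1+ cells without lineage markers. The groups were 4 libraries from control young mice (8 to 12 weeks old), 5 from young mice given 1 intraperitoneal injection of CCCP at 0.3 mg/kg, 3 from control old mice (over 18 months) and 5 from old mice given 5 daily injections of Mito-Q at 2 mg/kg. CCCP is a protonophore that lowers the mitochondrial membrane potential, and Mito-Q is an antioxidant that gathers in mitochondria. No label states a vehicle for the controls, the time from injection to harvest, or that libraries are from different mice, so p-values measure the spread between libraries only.

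Neutrophil precursors fill a succession of granules as they mature. Primary (azurophil) granules are made at the promyelocyte stage and hold myeloperoxidase (Mpo) and the serine proteases neutrophil elastase (Elane), proteinase 3 (Prtn3) and cathepsin G (Ctsg). Ms4a3 encodes a membrane protein made by granulocyte and monocyte progenitors. Secondary and tertiary granule genes such as Ltf, Camp and Ngp come on later, when transcription of the primary granule genes ceases. Long-term HSCs sit upstream of all these stages.

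Libraries held 5649611 to 8120443 reads in genes, and levels are given as CPM, counts relative to library size with TMM scaling factors. The floor was set at 3 reads, which stood for 0.298 to 0.653 CPM. Young CCCP 3 stood apart, with a median Spearman correlation of 0.682 with the other libraries over 24523 genes, against 0.799 to 0.863 for the rest. Old control 1 had the next lowest value. These libraries also had the largest shares of reads assigned to no single gene, at 76.2% and 68.8%, against 37.7% to 60.6% elsewhere. As a check of the sort, Kit and Meis1, genes of HSCs, reached at least 462 and 372 CPM in every library. Cd48, the gene of a surface protein the sort excluded, lay between 0 and 19.2 CPM. It averaged 1.36 CPM in young controls, 7.47 in young CCCP, 0.238 in old controls and 6.81 in old Mito-Q, with overlapping libraries.

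**Figure D1:**
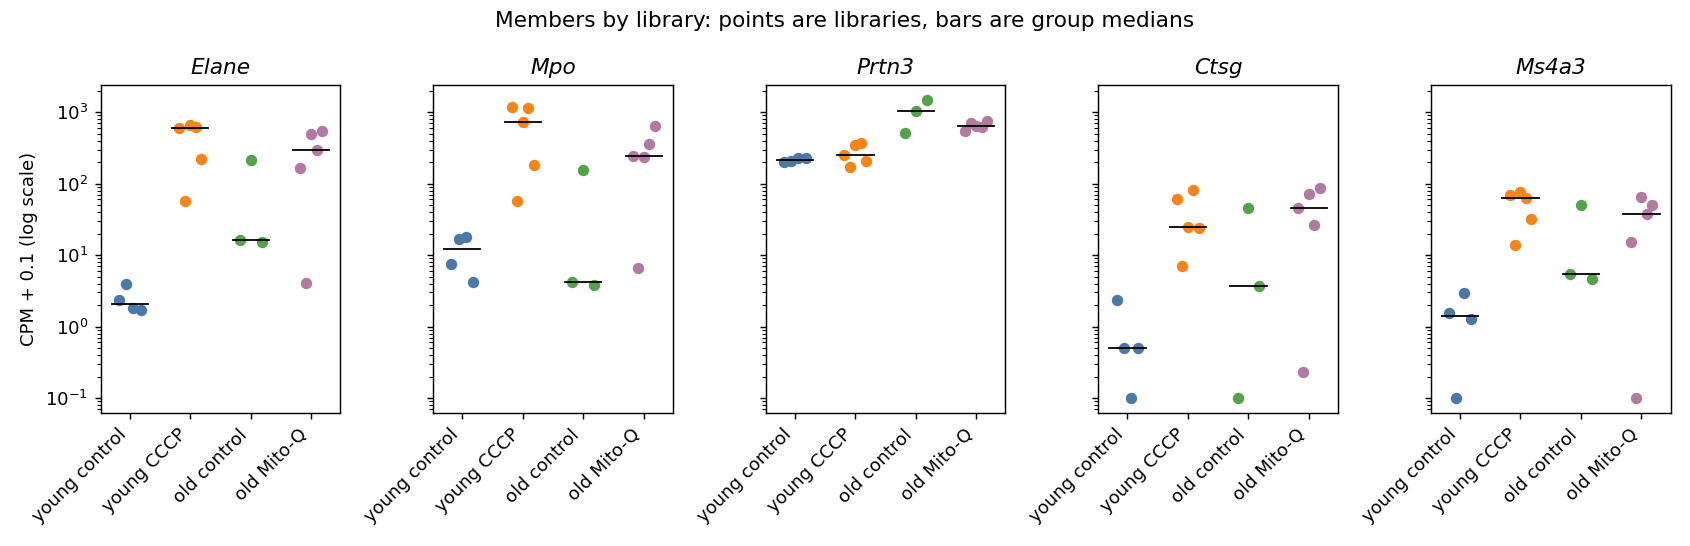
CPM + 0.1 on a log scale for each of the 5 genes, with 1 point per library and a bar at the median of each group. Prtn3 separates the young from the old groups. Its bands are narrow in young controls and old Mito-Q, and wider in young CCCP (172 to 367 CPM) and old controls (505 to 1486 CPM). The other genes spread more widely. Elane, Ctsg and Ms4a3 have their lowest group medians in young controls, at 1.99, 0.403 and 1.32 CPM, and Mpo in old controls, at 4.04 CPM.

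Prtn3 stood at a substantial and even level in every library of young control mice, and the other genes of the set were at 17.6 CPM or less there. Prtn3 read 201, 207, 226 and 228 CPM in the 4 young controls. Elane read 2.23, 3.82, 1.74 and 1.59 CPM in the same libraries. Mpo read 7.36, 16.5, 17.6 and 4.10 CPM. Both were thus above the floor in all 4, and far below Prtn3. Ctsg was at or under the 3-read floor in 3 of the 4 young controls, with 2.23 CPM as its highest value. Ms4a3 was at or under the floor in 1 and reached 2.83 CPM at most.

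Levels of different genes were compared per kilobase (kb) of exon. In young controls Prtn3 averaged 124 ± 7.71 CPM per kb (SD, n = 4), while Mpo averaged 3.33 ± 1.96 and Elane 2.38 ± 1.04. Ctsg and Ms4a3 averaged 0.736 ± 0.969 and 0.725 ± 0.616 CPM per kb. In the young CCCP libraries Elane led, at 439 ± 279 CPM per kb (SD, n = 5), ahead of Mpo at 192 ± 153 and Prtn3 at 155 ± 50.2. The order of the 3 means in that group is within their spread. In old controls Prtn3 led again, at 586 ± 284 CPM per kb (n = 3), and in old Mito-Q it averaged 376 ± 48.3 beside 306 ± 228 for Elane (n = 5). These lengths join all annotated exons. With the length of the principal transcript instead, which is 1025 bases for Prtn3 in place of 1732, the young CCCP mean of Prtn3 was 262 CPM per kb and that of Elane stayed at 439.

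Old control HSCs carried more Prtn3 than young control HSCs. Old controls 1, 2 and 3 read 505, 1053 and 1486 CPM of Prtn3. All 3 lay above every young control, and the lowest was old control 1. The log2 fold change was 2.23 (SE 0.33), with an adjusted p of 0.000170 by edgeR's quasi-likelihood test with Benjamini-Hochberg adjustment. Prtn3 ranked 47 by p among all genes tested. Of the 5 genes it was the only one called (adjusted p below 0.05), where 1.69% of all 24523 genes tested were called in this comparison and 0.522% were called as higher. At an unadjusted p under 0.05 there were 4 of the 5, beside 14.2% of all genes. Limma-voom, which called 13.4% of all genes, also called Prtn3 alone of the 5. The increase was called under all 17 alternatives, where it ran from 1.85 to 2.61, and it measured 2.61 without old control 1.

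The rest of the set was also read higher in old controls on average, and this rested mainly on 1 library. Elane read 16.3, 214 and 15.03 CPM in old controls 1 to 3. Mpo read 4.04, 155 and 3.71 CPM. Old control 2 was the high library for both genes, and for Mpo the other two lay just below the lowest young control. Ctsg read 0, 45.3 and 3.54 CPM, and Ms4a3 read 5.35, 50.8 and 4.60 CPM. The same library, old control 2, was highest for these too.

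The log2 fold changes between old and young controls were 5.10 for Elane (SE 1.36), 4.31 for Ctsg (SE 1.56), 3.92 for Ms4a3 (SE 1.15) and 2.26 for Mpo (SE 1.39). The adjusted p-values by edgeR were 0.0848, 0.207, 0.0854 and 0.514, so none passed. For Elane, Ms4a3 and Prtn3 no old control overlapped a young control, 3 of 5 genes where 5.04% of all genes tested did so in the higher direction. The median log2 fold change of the 5 genes was 3.92, and that of all genes tested was 0.16. Without old control 2 the fold change of Elane was 2.68 and that of Mpo was -1.57. Elane was called by DESeq2 (adjusted p 0.000452), which called 5.24% of all genes by age, and by an edgeR fit of the 2 groups alone (adjusted p 0.0200).

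No marker of mature neutrophils was called in old controls. The list of 18 secondary granule, tertiary granule and mature neutrophil genes summed to 638, 1008 and 872 CPM in old controls, inside the range of 231 to 2334 CPM in young controls. EdgeR called 0 of the 18, with 0 at an unadjusted p under 0.05 and 0 calls by DESeq2 or limma-voom, and their median log2 fold change was -0.85. S100a8, S100a9 and Ngp, the most abundant, had log2 fold changes of 1.00, 0.48 and -0.86. In these bulk samples the number of cells of a type and the RNA per cell cannot be told apart.

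HSCs of CCCP-treated young mice read higher for Elane, Mpo, Ctsg and Ms4a3 than those of young controls, while Prtn3 overlapped between the groups. Elane read 596, 57.7, 671, 613 and 221 CPM in young CCCP 1 to 5. Mpo read 1168, 57.1, 725, 1150 and 182 CPM, Ctsg 60.4, 6.90, 24.3, 80.9 and 23.5 CPM, and Ms4a3 68.9, 13.7, 76.4, 62.8 and 31.7 CPM. Young CCCP 2 was the lowest library for all 4 genes and still lay above the highest young control. Those 4 genes were separated between the groups, where 1.78% of all genes tested were separated in the higher direction. Prtn3 read 249, 172, 351, 367 and 206 CPM, which overlapped the young controls.

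Elane had the largest log2 fold change of the set, 7.50 (SE 1.45, adjusted p 0.0235 by edgeR's quasi-likelihood test). Ms4a3 followed among the called genes with 5.25 (SE 1.15, adjusted p 0.0213 by edgeR). In this comparison 0.718% of all genes were called, and 0.0652%, 16 genes, were called as higher. Elane and Ms4a3 were among those 16. At an unadjusted p under 0.05 there were 4 of the 5, beside 11.2% of all genes. Mpo and Ctsg had log2 fold changes of 5.86 (SE 1.53) and 5.59 (SE 1.56) with adjusted p-values of 0.156 and 0.171 by edgeR, and were not called. Prtn3 had 0.32 (SE 0.28, adjusted p 0.741 by edgeR). The median over the 5 genes was 5.59, beside 0.21 for all genes.

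The calls did not hold with 3 young controls. Without any 1 of the 4 young controls, neither Elane (adjusted p 0.0700 to 0.107 by edgeR) nor Ms4a3 (0.0854 to 0.139) was called, although the fold change of Elane stayed between 7.35 and 7.84. Ms4a3 was also lost without young CCCP 1 or young CCCP 3 (adjusted p 0.0541 and 0.0936 by edgeR). Elane measured 7.29 without young CCCP 3 (adjusted p 0.0493 by edgeR). DESeq2 called 4 of the 5, all but Prtn3, and 2.31% of all genes. Limma-voom called 0 of the 5 and 1.48% of all genes.

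**Figure D2:**
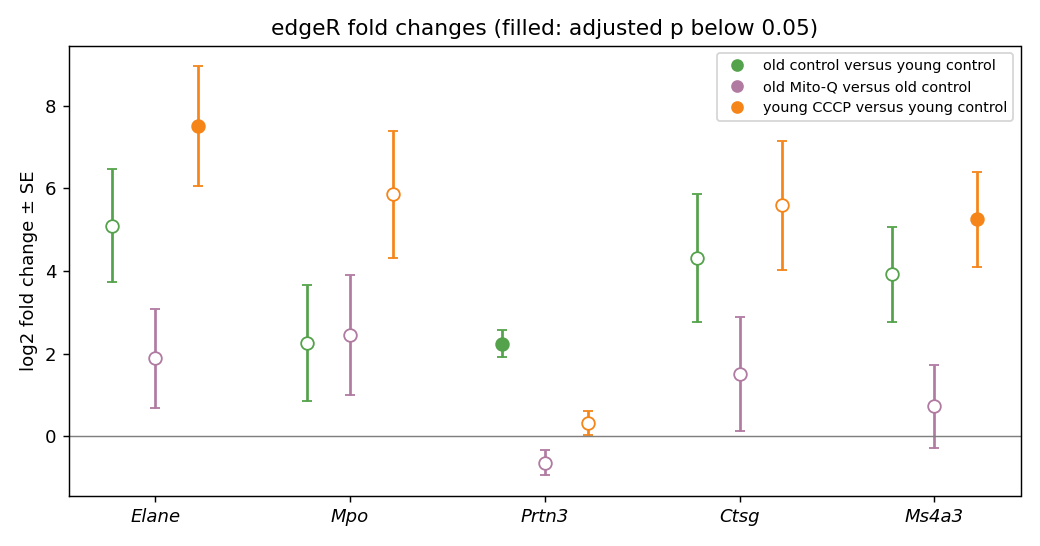
Log2 fold change ± SE from the edgeR fit for each gene in the 3 comparisons, with filled symbols where the adjusted p was below 0.05. Prtn3 is filled only for old control versus young control, at 2.23, and Elane and Ms4a3 only for young CCCP versus young control, at 7.50 and 5.25.

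Genes of mature neutrophils were high in most of the same CCCP libraries. The 18-gene sum read 8555, 551, 13162, 16314 and 5120 CPM in young CCCP 1 to 5, against 2334, 258, 231 and 415 CPM in young controls 1 to 4. All 18 had positive fold changes, with a median of 3.26 beside 0.21 for all genes, and 15 had an unadjusted p under 0.05, beside 11.2% of all genes. By edgeR 0 of them were called, by DESeq2 10 and by limma-voom 0, beside 0.718%, 2.31% and 1.48% of all genes. None of the 18 was at or under the floor in all libraries of a group. Their part in the rise of Elane and Ms4a3 was not tested.

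Over the 17 libraries Elane correlated with S100a8 and Camp at 0.89 each (Spearman), and both were among the genes most like it. The early and late granule genes still did not keep a fixed proportion from library to library. Young control 1 had the highest neutrophil sum of its group, 2334 CPM, with S100a8 at 484 CPM and Ngp at 546 CPM, yet its Elane was 2.23 CPM. Young CCCP 2, whose sum was 551 CPM, had Elane at 57.7 CPM. Old control 2 had 214 CPM of Elane at a sum of 1008 CPM. Ctsg was the exception in young control 1, where its 2.23 CPM was the highest of the group.

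**Figure D3:**
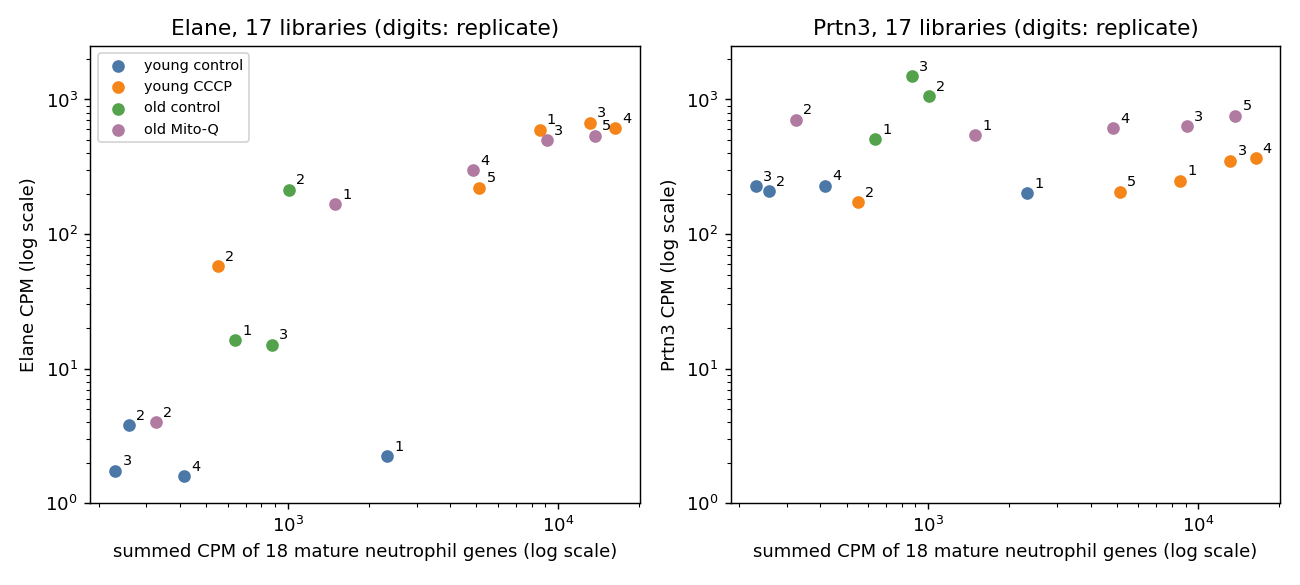
Elane (left) and Prtn3 (right) CPM against the summed CPM of 18 mature neutrophil genes, both on log scales, with 1 point per library and the replicate number beside it. Elane is at 221 CPM or more in every library with a sum of 4858 CPM or more. In the libraries with a sum of 415 CPM or less it is at 3.98 CPM or less. Between these sums Elane varies widely. It is lowest in young control 1, with 2.23 CPM at a sum of 2334, and highest in old control 2, with 214 CPM at 1008. Prtn3 stays between 172 and 1486 CPM throughout.

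After Mito-Q in old mice edgeR called none of the 5 genes, where it called 0.542% of all genes tested, and limma-voom called Prtn3 lower. Elane read 167, 3.98, 498, 298 and 537 CPM in old Mito-Q 1 to 5. Mpo read 241, 6.42, 239, 356 and 637 CPM. Old Mito-Q 2 was low for both, while the other four lay above old controls 1 and 3. Ctsg read 44.9, 0.128, 71.9, 26.5 and 85.7 CPM, and Ms4a3 15.2, 0, 65.7, 37.3 and 49.4 CPM. Old Mito-Q 2 was at or under the 3-read floor for these too, and every one of the 5 genes overlapped the old controls, where 3.87% of all genes were separated in the higher direction.

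The log2 fold changes from old control to old Mito-Q were 1.88 for Elane (SE 1.20), 2.45 for Mpo (SE 1.44), 1.50 for Ctsg (SE 1.38) and 0.73 for Ms4a3 (SE 1.01). Adjusted p-values by edgeR ran from 0.621 to 0.899 for these 4. Prtn3 read 544, 707, 634, 613 and 759 CPM, and its log2 fold change was -0.64 with an SE of 0.30 (adjusted p 0.485 by edgeR). It was the 1 gene of the set with an unadjusted p under 0.05, beside 10% of all genes. DESeq2 called 0 of the 5 and 1.84% of all genes. Limma-voom, which called 4.93% of all genes, gave -0.74 for Prtn3 (adjusted p 0.0203). Of 17 alternatives it alone called Prtn3, whose log2 fold change ran from -1.02 to -0.25. Old controls are shared with the comparison by age, so a high or low old control moves both sets of values.

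Mature neutrophil genes were also low in old Mito-Q 2. Their sum was 325 CPM in old Mito-Q 2 and 1499, 9082, 4858 and 13742 CPM in libraries 1, 3, 4 and 5. All 18 had positive fold changes against old controls, with a median of 3.11 beside -0.12 for all genes. An unadjusted p under 0.05 was found for 10, beside 10% of all genes. By edgeR 0 were called, by DESeq2 9 and by limma-voom 0, beside 0.542%, 1.84% and 4.93% of all genes. Their part in the readings of Elane, Mpo, Ctsg and Ms4a3 was not tested.

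The spread between libraries of 1 group set Prtn3 apart from the other members. The within-group SD on the log2 scale was 2.02 for Elane, 2.19 for Mpo, 2.48 for Ctsg and 2.14 for Ms4a3. These were larger than in 99.0% to 99.9% of the 11816 genes with a mean log2 CPM above 2. For Prtn3 it was 0.42, larger than in 13.7% of those genes, whose median was 0.68. Over all 17 libraries the Spearman correlation was 0.93 between Elane and Ms4a3, and 0.81 to 0.86 for the other pairs among Elane, Mpo, Ctsg and Ms4a3. Prtn3 correlated with them at 0.02 to 0.35. These values describe libraries that share groups and preparation, and no test was made of them.

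To describe the contrast with Prtn3 in each library, each gene's reads per kb were divided by those of Prtn3 in the same library. For the log2 ratios 0.5 reads were added to both genes, and the percentages had no reads added. The ratio was chosen after the values had been seen, with the 4 genes already separated between CCCP and control and Prtn3 not, so its values are a description with no test. Elane as a percentage of Prtn3 was 1.95, 3.24, 1.36 and 1.22 in young controls and 422, 59.2, 336, 294 and 189 in young CCCP. On the log2 scale the ratio was 6.85 higher after CCCP for Elane, 5.09 for Mpo, 5.63 for Ctsg and 5.51 for Ms4a3. For every one of the 4 genes all CCCP libraries lay above all young controls.

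In the other comparisons the ratios to Prtn3 overlapped between the groups for all 4 genes. Between old and young controls the log2 ratio differed by 1.94 for Elane, -1.64 for Mpo, 0.04 for Ctsg and 1.69 for Ms4a3. Between old Mito-Q and old control the differences were 2.41, 4.03, 3.51 and 0.44 in the same order. Old Mito-Q 2 was the lowest library of its group for Elane. Elane as a percentage of Prtn3 was 5.68, 35.7 and 1.78 in old controls and 54.1, 0.991, 138, 85.6 and 125 in old Mito-Q. These percentages use joined exons. With principal transcripts every one is lower by the same factor, so that old Mito-Q 3 and 5 come to 81.8 and 73.7 and lie below Prtn3, while young CCCP 1, 3, 4 and 5 still lie above it, at 249.6, 199, 174 and 112. The differences between groups on the log2 scale do not depend on the lengths.

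**Figure D4:**
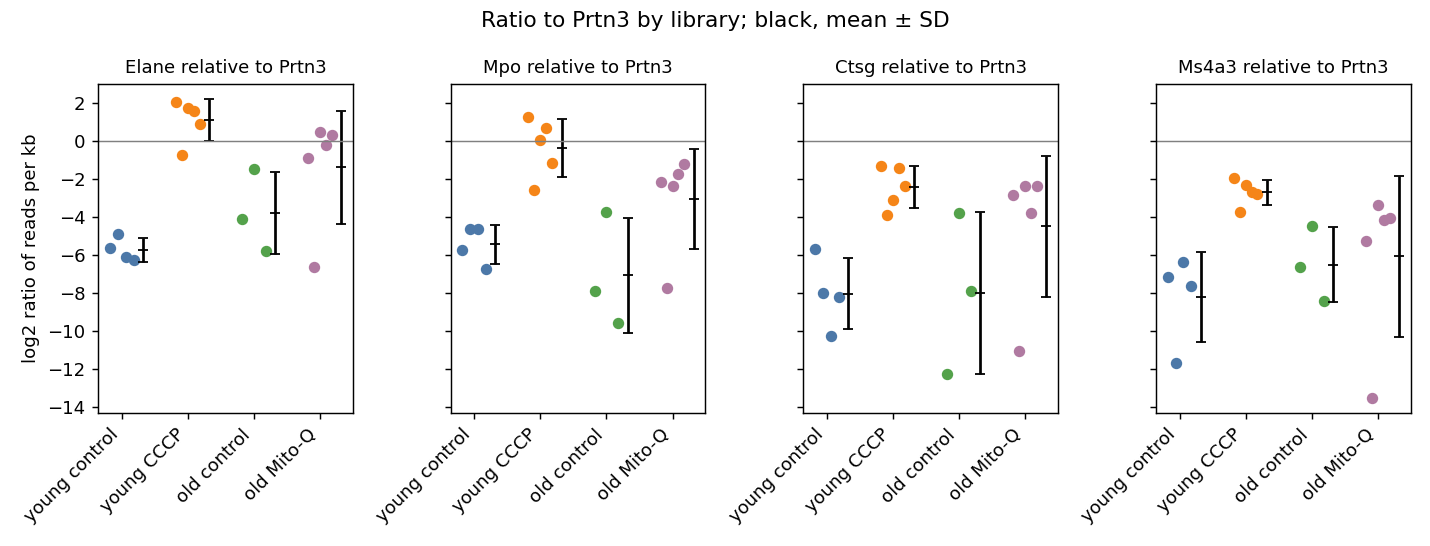
Log2 ratio of each gene's reads per kb to those of Prtn3, with 1 point per library and the mean ± SD of each group in black. Young CCCP libraries lie above all young controls in every panel, while old controls and old Mito-Q libraries overlap.

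Prtn3 (ENSMUSG00000057729) and Elane (ENSMUSG00000020125) lie next to each other on the plus strand of chromosome 10 in GRCm38. Prtn3 spans 79874476 to 79883174 and Elane 79886247 to 79888215, with 3072 bases between them. Of the 16 neighbouring genes followed, 11 were tested and 0 were called by edgeR or DESeq2 in any of the 3 comparisons. By limma-voom Bsg and Kiss1r were called higher in old controls. At an unadjusted p under 0.05 there were 0 neighbours by age, 0 for Mito-Q and 1 for CCCP. Bsg, R3hdm4 and Ptbp1, the most abundant neighbours, had CCCP log2 fold changes of 0.07, 0.07 and -0.45. Prss57, a serine protease of the same granules, averaged 7.94 ± 8.46 CPM in young controls and 19.2 ± 12.6 CPM after CCCP, with overlapping libraries. The first 159 bases of Prtn3 overlap Plppr3 on the other strand, and the strand setting of the counting is not given in the sources used here. Plppr3 averaged 72.0 CPM in young and 80.8 CPM in old controls.

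**Figure D5:**
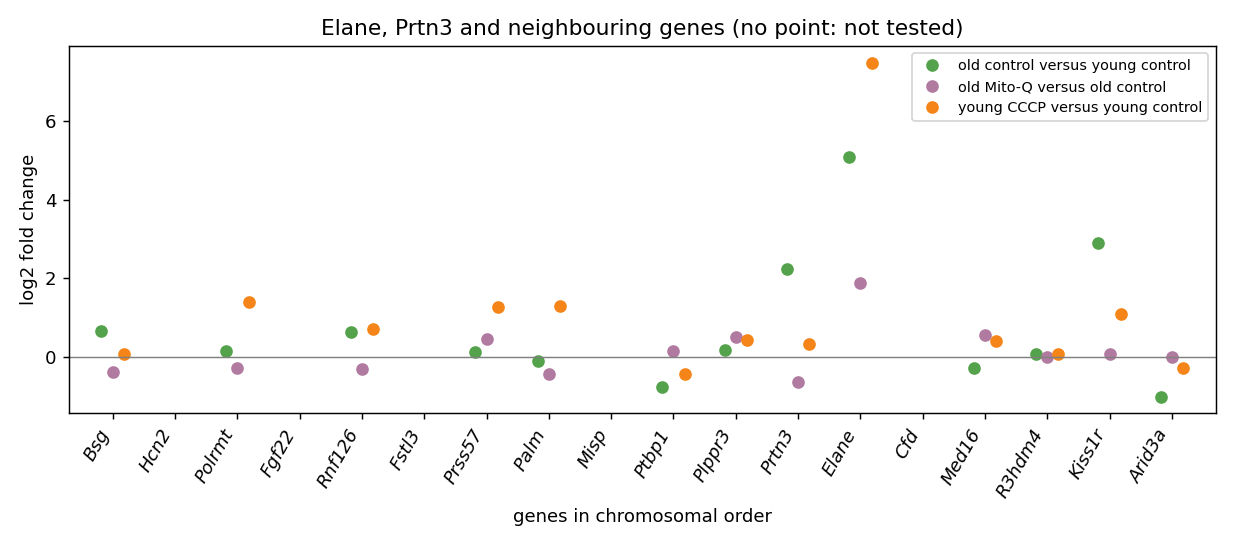
Log2 fold changes of Prtn3, Elane and 16 neighbours in chromosomal order for the 3 comparisons, with no point where a gene was not tested. Elane reaches 7.50 for CCCP, and Prtn3 beside it lies at 0.32.

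Mpo (ENSMUSG00000009350) lies on chromosome 11 from 87793581 to 87804413 on the plus strand. Supt4a, Epx and Mks1, the most abundant of its 6 neighbours followed, were not called by edgeR in any comparison, nor were the others. Those at an unadjusted p under 0.05 numbered 1, 1 and 2 of the 6 for age, Mito-Q and CCCP. The shares of all genes at that level were 14.2%, 10% and 11.2%. Limma-voom called Supt4a higher in old controls. Epx, the eosinophil peroxidase, averaged 58.4 ± 107 CPM in young CCCP and 0.231 ± 0.463 CPM in young controls, and DESeq2 called it higher. Ctsg (ENSMUSG00000040314) lies on the minus strand of chromosome 14 from 56099881 to 56102574. Of its 12 protease neighbours 7 were tested and 0 called by edgeR in any comparison (2, 3 and 1 at an unadjusted p under 0.05), with Mcpt8, Gzmc and Gzmf the most abundant, while DESeq2 called Mcpt8 higher after Mito-Q. Ms4a3 (ENSMUSG00000024681) lies on the minus strand of chromosome 19 from 11629496 to 11640851. Among 10 other Ms4a genes 9 were tested and 0 were called by edgeR, DESeq2 or limma-voom (0, 1 and 0 at an unadjusted p under 0.05). Ms4a6b, the most abundant of them, had log2 fold changes of -0.14, -0.22 and 0.26 for age, Mito-Q and CCCP.

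Upstream sequences are shown for 3 genes: Elane and Prtn3, the neighbours whose transcripts differed, and Ms4a3, whose levels followed those of Elane most closely. They come from the RefSeq promoter windows on GRCm38.p6 and stop before the principal transcript of GENCODE M21, which for Prtn3 starts inside the annotated gene. Capitals mark GAGGAA, a core of sites bound by the myeloid factor PU.1.
Elane, chr10:79886062-79886246, plus strand: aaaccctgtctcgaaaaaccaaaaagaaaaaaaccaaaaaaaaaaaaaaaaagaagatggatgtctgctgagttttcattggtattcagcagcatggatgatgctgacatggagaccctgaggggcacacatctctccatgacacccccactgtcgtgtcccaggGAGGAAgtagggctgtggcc
Prtn3, chr10:79879417-79879613, plus strand: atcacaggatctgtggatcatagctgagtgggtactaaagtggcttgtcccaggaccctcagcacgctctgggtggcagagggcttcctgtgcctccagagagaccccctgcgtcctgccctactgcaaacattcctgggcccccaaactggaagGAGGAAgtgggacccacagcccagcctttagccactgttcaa
Ms4a3, chr19:11640852-11641101, minus strand: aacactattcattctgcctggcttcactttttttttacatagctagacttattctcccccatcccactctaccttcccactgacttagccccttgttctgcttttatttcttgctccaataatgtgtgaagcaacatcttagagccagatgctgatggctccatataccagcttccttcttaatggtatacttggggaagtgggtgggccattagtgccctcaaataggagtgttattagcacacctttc
All 5 genes matched a window. On either strand, GAGGAA occurred in the windows of Elane, Prtn3, Mpo and Ctsg and not in that of Ms4a3, and in 23.3% of all 32851 windows. A MYB core (NAACNG with T or C at its first base and T or G before its last) occurred in the same 4 windows and in 23.7% of all, as CAACGG in both Elane and Prtn3. The C/EBP letters TTNNGNAA occurred in Ms4a3 alone of the 5, and in 36.8% of all windows. RUNX letters (TGNGGT with T or C at the N) and TATAAA occurred in Ctsg alone of the 5, and in 18.6% and 12.4% of all windows. No match overlapped another, and the MYB matches of Elane, Prtn3 and Mpo lay outside the stretch before the principal transcript. A match is a description of letters and not of binding. Elane and Prtn3 held the same letters of 2 kinds while their transcripts differed.

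Other genes of granule filling gave 1 edgeR call over the 3 comparisons, where 1.69%, 0.542% and 0.718% of all genes were called (age, Mito-Q, CCCP). The list of 16 genes for granule content, processing and transport includes Srgn, the proteoglycan that packs granule proteins, Lyz2, a lysozyme, and Cd63, a membrane protein of the granules. The edgeR call was Cd63 in old controls, which read 1187 ± 614 CPM (n = 3) against 425 ± 53.5 CPM (n = 4) in young controls. The log2 fold change was 1.48 (SE 0.32, adjusted p 0.0146 by edgeR). That call was lost without old control 2 or old control 3 (adjusted p 0.144 and 0.305 by edgeR). Lyz2 and Srgn had log2 fold changes of 0.45 and 0.66 by age and 0.59 and -0.96 with CCCP, and edgeR called neither. By age 6 of the 16 had an unadjusted p under 0.05, beside 14.2% of all genes, and 13 had positive log2 fold changes. DESeq2 called 3 higher by age (Cst7, Cd63 and Jagn1) and limma-voom 4 (Srgn, Cd63, Hax1 and Jagn1), beside 5.24% and 13.4% of all genes. EdgeR called 0 of the list for Mito-Q and 0 for CCCP. In each 2 had an unadjusted p under 0.05, beside 10% and 11.2% of all genes. For Mito-Q limma-voom called 2 lower, Cd63 and Jagn1, and DESeq2 called 0, beside 4.93% and 1.84% of all genes. For CCCP DESeq2 called 1 higher, Cst7, and limma-voom called 0, beside 2.31% and 1.48% of all genes.

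The 24 myeloid progenitor genes gave 1 edgeR call in each comparison, and it was Rgcc each time. Rgcc, a regulator of cell cycle proteins, averaged 542 ± 119 CPM in young controls, 30.9 ± 9.39 CPM in young CCCP, 36.9 ± 29.0 CPM in old controls and 562 ± 117 CPM in old Mito-Q. Its log2 fold changes were -3.88 by age, 3.93 for Mito-Q and -4.13 for CCCP (adjusted p 0.000142, 0.000105 and 1.56e-06 by edgeR). The direction of Rgcc with CCCP was opposite to that of Elane. Calr and Myb, the other abundant genes of the list, had CCCP log2 fold changes of -0.40 and -0.06, and limma-voom called Calr lower there and by age. After CCCP 11 of the 24 genes had an unadjusted p under 0.05, beside 11.2% of all genes. DESeq2 called 7 higher and 1 lower, where it called 2.31% of all genes. Cebpe, a transcription factor of late granulocyte precursors, read 9.72 ± 6.98 CPM after CCCP and 0.284 ± 0.436 CPM in young controls, a log2 fold change of 5.00 (adjusted p 0.246 by edgeR). DESeq2 and limma-voom called it higher. It was named after its values had been seen.

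The 6 genes whose levels over the 17 libraries were most like the mean of the 5 were Fcgr3 (Spearman 0.94), Ly6c2 (0.90), S100a8 and S100a9 (0.88 each), Ngp (0.88) and Camp (0.88). Fcgr3 encodes a receptor for antibodies, Ly6c2 a surface protein of myeloid cells, S100a8 and S100a9 calcium-binding proteins, and Ngp and Camp are granule proteins. Ly6c2 averaged 4.91 ± 4.51 CPM in young controls, 74.2 ± 51.2 CPM in young CCCP, 11.1 ± 6.34 CPM in old controls and 61.3 ± 41.0 CPM in old Mito-Q. For Prtn3 alone the most alike were Fyb, Cldn5 and S100a6 at 0.89 each, which were looked up after the values had been seen. None of these 3 is among the 6.

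Markers of other blood cells were read in the same libraries. Eosinophil, mast cell and basophil genes, 10 in number, summed to 9.39 to 22.6 CPM in young controls and 16.5 to 869 CPM in young CCCP. Prg2 averaged 165 ± 244 CPM and Epx 58.4 ± 107 CPM in young CCCP, while Prss34 averaged 49.3 ± 67.7 CPM in old Mito-Q and had no reads in old controls. EdgeR called 0 of the 10 in each comparison. Those at an unadjusted p under 0.05 numbered 1, 3 and 3 for age, Mito-Q and CCCP, beside 14.2%, 10% and 11.2% of all genes. DESeq2 called 0, 2 and 2, beside 5.24%, 1.84% and 2.31% of all genes, and limma-voom 0 in each. Erythroid genes, led by Car2, Hbb-bs and Hba-a1, summed to 1773 to 2188 CPM in young controls and 1930 to 3207 CPM in young CCCP. Most of that sum was Car2, which averaged 1836 CPM in young controls and 1684 CPM in young CCCP. Hbb-bs averaged 46.1 and 221 CPM in these groups and Hba-a1 51.5 and 184 CPM, with overlapping libraries. After CCCP 9 of the 10 genes had positive log2 fold changes, all but Car2. Their median was 1.19, beside 0.21 for all genes. EdgeR and DESeq2 called 0 of these 10 genes, with 1, 1 and 3 at an unadjusted p under 0.05, beside the same shares of all genes. Limma-voom called Car2 higher by age and lower for Mito-Q, where it called 13.4% and 4.93% of all genes. The part of these markers in the results for Elane and Ms4a3 was not tested.

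Monocyte and dendritic cell genes, led by Cst3, Fn1 and Ms4a6c, summed to 400 to 884 CPM in young controls, 306 to 472 CPM in young CCCP and 539 to 1441 CPM in old controls. B cell genes, led by Cd79b, Ighm and Ebf1, summed to 51.3 to 107 CPM in young controls and 64.9 to 202 CPM in old controls. In young CCCP they summed to 54.4 to 214 CPM, with a median of 67.7 CPM against 75.6 CPM in young controls. Ighm averaged 6.49 CPM in young controls and 42.1 CPM in young CCCP, with overlapping libraries. After CCCP 7 of the 8 genes had positive log2 fold changes, all but Cd79b. EdgeR and DESeq2 called none of either list, with at most 2 genes at an unadjusted p under 0.05 in a comparison. Limma-voom called Cst3 and Cd79b higher by age, and Cst3 lower for Mito-Q. Of the T and NK cell genes, led by Nkg7, Klrb1c and Cd4, Klrb1c was called higher in old controls (log2 fold change 3.03, adjusted p 0.0155 by edgeR). The edgeR call was lost without young control 1, young control 2 or old control 2 (0.0599, 0.0557 and 0.0957).

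Several megakaryocyte and progenitor genes changed with age beside Prtn3. Among 6 megakaryocyte genes tested, Selp (log2 fold change 3.16), Vwf (1.66) and Gp9 (1.58) were called higher in old controls, with adjusted p-values of 6.27e-05, 0.00422 and 0.0359 by edgeR. Itga2b was not called there (0.13), where 0.522% of all genes were called as higher. Vwf was also called higher with CCCP, at 1.25 (adjusted p 0.0335 by edgeR). Without any 1 young control, or without young CCCP 2 or 5, that call was lost. The Gp9 call was lost without any 1 young control, old control 2 or old control 3, and the Vwf call by age without old control 2. Of the multipotent progenitor genes, Cd34 fell by 1.54 and Flt3 fell by 3.27 on the log2 scale in old controls (adjusted p 0.00307 and 0.00372 by edgeR), and Cd27 was not called at 0.36. The Cd34 call was lost without old control 3 (adjusted p 0.0610 by edgeR). The list of 11 genes of HSCs and their gate included Cd48, whose protein the sort excluded. None of the 11 was called by edgeR in any comparison. Those at an unadjusted p under 0.05 numbered 5, 2 and 0 for age, Mito-Q and CCCP, beside 14.2%, 10% and 11.2% of all genes. The 2 for Mito-Q were Cd48 and Slamf1, the gene of CD150. Cd48 had a log2 fold change of 4.63 (SE 2.22), with overlapping libraries and an old control mean of 0.238 CPM, under the 3-read floor. Slamf1 averaged 161 CPM in old Mito-Q and 96.7 CPM in old controls, without overlap (log2 fold change 0.73, SE 0.31). Slamf1 was named after its values had been seen. By age DESeq2 called 5, 3 higher and 2 lower, beside 5.24% of all genes. Limma-voom called 6 by age, 3 higher and 3 lower, beside 13.4%, and 1 lower for Mito-Q, beside 4.93%.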

How the data were processed

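Bulk RNA was sequenced in 17 libraries of 4 groups. The authors used Trim Galore and STAR 2.7 with GRCm38, per the submitters' processing notes, and deposited raw counts of reads for Ensembl genes. The counter, strand setting and removal of PCR duplicates are not given in the sources used here, so floors cover counting error only. Reads in the 5 footer entries (37.7% to 76.2% of each file's total) stayed out. GENCODE M21 (GRCm38) named 54809 IDs.

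Counts were fitted with edgeR 4.0.16 in R 4.3.3 (TMM, filterByExpr with minimum count 10, robust quasi-likelihood F-test, all libraries in 1 fit, no covariates, two-sided). Calls were made at 0.05 after Benjamini-Hochberg adjustment over 24523 tested genes. DESeq2 1.42.0, limma 3.58.1, other scalings and filters, a replicate block and leaving libraries out were alternatives. On simulated data with 200 changed genes, 8-fold changes were recovered in 37.9%, 39.4% and 30.3% (age, Mito-Q, CCCP) and 2-fold ones in 1.49%, 2.99% and 1.49%.

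The members, the 15 other lists and the tests were chosen with earlier results of these data known. Named genes were all 5 members, from each other list the 3 of highest mean CPM and up to 6 called of smallest p, and the 6 genes most like the members' mean. A gene that this rule names is not reported here.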

Additional observations from a re-analysis of the deposited data

How the results depend on the processing

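Genes called by age numbered 415, of which 128 were higher. With upper-quartile factors 190 were higher and 237 lower, and the median of all genes moved from 0.16 to 0.28. The counts by age, Mito-Q and CCCP were 1260, 442 and 556 with DESeq2 and 3278, 1210 and 364 with limma-voom. With only the 2 groups fitted they were 186 by age and 111 for CCCP, and without a filter 324 for CCCP. Leaving out 1 library gave 125 to 684 by age and 79 to 142 for Mito-Q.

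Of the 5 members, edgeR called 1 by age, 0 for Mito-Q and 2 for CCCP. By age 2 were called with DESeq2, with a minimum count of 30 and with only the 2 groups. For Mito-Q limma-voom called 1. For CCCP 4 were called with DESeq2 and with only the 2 groups, 1 without a filter, 0 with limma-voom, and 0 to 2 with 1 library left out. Without young control 3 and young CCCP 3 together, an alternative chosen after seeing the data, 1271 genes were called by age and 0 members for CCCP.

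Replicate numbers did not pair the libraries: deviations of same-numbered libraries correlated at -0.11 to 0.12, and 1 of 4 CCCP libraries correlated best with its own number. With a replicate block 0 members were called for CCCP (Elane adjusted p 0.191 and Ms4a3 0.163 by edgeR).

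Directions turned for Ms4a3 with Mito-Q, at -0.74 with the block and -1.58 with limma-voom, and for Mpo by age, which ran from -1.57 to 2.86 with 1 library left out. The ratio to Prtn3 also changed sign for Ctsg by age, at -2.07 to 2.19, and for Ms4a3 with Mito-Q, at -0.51 to 2.31. The causes were not tested. The CCCP ratios to Prtn3 kept their direction over 10 alternatives each, at 4.35 to 7.32. Elane with CCCP was positive in 19 of 19 alternatives and called in 12, Ms4a3 in 19 and 9. In young controls Elane rests on 8 to 28 reads, and Ctsg and Ms4a3 on fewer in most libraries, which limits their fold changes.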
